A study of Mus musculus with 6 samples.

Results

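Cells lay down around themselves a matrix in which collagens are joined by glycoproteins, proteoglycans and elastic microfibrils, and 47 genes for these non-collagen components were examined in myoblasts and myotubes. The members were the probe sets whose single annotated gene symbol was one of the 47, CYR61 and CTGF being read under their present names CCN1 and CCN2. All 47 were on the array, with 88 probe sets, among 11942 genes with a symbol of their own. The RNA came, by the labels, from C2C12, a line of mouse muscle precursors: its myoblasts divide, and on withdrawal of growth factors they fuse into long cells with many nuclei, the myotubes. It was hybridised to 6 HG-U133A arrays, 3 of myoblasts and 3 of myotubes. The myotubes had been cultured with 2.5% horse serum; the medium of the myoblasts, the time in culture and the source of each array (its own culture or a shared one) are not given in the sources used here. P-values therefore cover the spread among these arrays and nothing more, and that spread may be technical. HG-U133A carries probes designed against human transcripts while the labels name mouse, so which species the RNA came from is unsettled, and gene names are those of the human targets. Both groups came from the same line, and no genotype, transgene or other agent is named. A culture labelled as myotubes can also hold cells that did not fuse, and in such bulk RNA more cells of a type and more RNA per cell cannot be told apart.

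Small leucine-rich proteoglycans such as decorin and lumican are short horseshoe-shaped core proteins that bind collagen fibrils and set their spacing, and several also bind growth factors. Fibrillins assemble into microfibrils, on which elastin is deposited with the help of fibulins and microfibril-associated proteins, and which hold latent TGF-beta through the latent TGF-beta binding proteins. Fibronectin is the provisional fibrillar scaffold of cultured cells, and matricellular proteins (thrombospondins, periostin, osteopontin, the CCN family, SPARC) act on cell adhesion and signalling more than on matrix strength. In muscle most of this matrix is attributed to fibroblasts of the connective tissue, but cultured muscle cells also make it.

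The matrix genes fall partly into clusters of relatives, and mouse RefSeq tables (GRCm38.p6) were used to see which members lie beside each other. All 47 matched by symbol. In the order of protein-coding genes Ecm2, Aspn, Omd and Ogn follow each other with 0 genes between neighbours, as do Dcn and Lum, Prelp and Fmod, and Hapln1 and Vcan. The promoter table held 35 of the 47 members, each with 250 bases before and 50 bases after a transcription start. The TATA-box letters TATAAA, searched on both strands, occurred in promoters of 9 of these 35 members (25.7%), and 15.7% of the 27025 genes of the table had them. They were found in 4 of 10 members called higher in myotubes and in 1 of the 2 called lower. Among the called members with a promoter in the table, the letters lay on the gene's own strand 20 to 40 bases before the start in Postn, which rose in myotubes, and in Ccn1, which fell, and in no other. Both stretches are shown because they carry the same element before genes that moved in opposite directions. Each runs from 80 bases before to 20 bases after the start, 5′ to 3′ on the gene's strand, with TATAAA in capitals.
Postn, GRCm38.p6 chr3:54361027-54361126, plus strand: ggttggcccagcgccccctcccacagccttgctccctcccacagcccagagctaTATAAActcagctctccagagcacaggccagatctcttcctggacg
Ccn1, GRCm38.p6 chr3:145649966-145650065, minus strand: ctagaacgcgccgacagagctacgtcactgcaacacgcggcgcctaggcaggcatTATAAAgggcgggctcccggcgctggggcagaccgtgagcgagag
The capitals begin 26 bases before the start in Postn and 25 bases before it in Ccn1. The letters GGAATG, known as the core of the TEAD binding sequence, were in promoters of 4 of the 35 members (11.4%) against 16.6% of all genes, and of the called members Ccn1 had them. The muscle E-box letters CAGCTG were in 8 of 35 (22.9%) against 18.3% of all genes, and in 0 of the 10 members called higher. The CArG box, bound by serum response factor, was in 0 of 35 against 1.81%. These letters cannot overlap TATAAA, except that TATAAA can lie inside a CArG box, and the letters alone say nothing of whether a factor binds.

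The 6 arrays were not equally alike. Signals of myoblast arrays 2 and 3 correlated at r = 0.988 and those of myoblast array 1 with either at 0.874 and 0.881, across genes. The run records put myoblast array 1 in the same laboratory series, a run of consecutive laboratory codes, as the 3 myotube arrays, and myoblast arrays 2 and 3 in a second series. All myoblast arrays had been scanned on a different day from all myotube arrays, so scan day and cell stage cannot be told apart. The 3 myotube arrays shared a chip lot, myoblast arrays 2 and 3 shared another, and myoblast array 1 had its own. Chip lot and cell stage therefore cannot be told apart either. The title of myoblast array 3 reads Grow (G3) and does not name myoblasts, where the other myoblast titles carry G1 and G2. It was grouped by its description, whose numbering covers only the first 2 arrays. By the labels its group is therefore less certain than the others. The highest signal of 27 unspiked control probe sets, here the control level, lay between 251.5 and 1040.2 per array, and a signal at or below it is not well above background.

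Of the 47 members 38 passed a filter on dim probe sets, a mean signal of at least 474.6, and were compared between the stages with limma on log2(signal + 197). Of these 15 rose in myotubes, 2 fell and 21 did not pass the test at an adjusted p of 0.05. The share that rose was 39.5%, where 5.89% of all 8148 genes tested rose, and the share that fell was 5.26%, where 7.12% of all genes fell. The median log2 change of the 38 was 0.86, beside 0.12 over all genes tested, and 33 of the 38 changes were above 0. In 22 members (57.9%) every myotube signal exceeded every myoblast signal, which was so in 18.5% of all genes. In 3 members (7.89%), CCN1, CCN2 and LTBP1, every myotube signal was below every myoblast signal, as in 16.3% of all genes. In 13 the groups overlapped. With 3 arrays against 3 an exact permutation test of a single gene cannot give a p below 0.1, so calls rest on the model fitted over all genes. The filter took the mean over all 6 arrays, so a gene dim in myoblasts could pass it through its myotube signals. That was so for ASPN, MGP, MFAP4, LTBP3, ECM2 and TNFAIP6, with myoblast means of 152, 248, 361, 461, 369 and 310. For these 6 the test of a rise is not independent of the filter.

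With the laboratory series as a block, which sets the myotubes in effect against myoblast array 1, 9 of the 38 rose, where 1.82% of all genes rose, and 1 fell, where 1.36% of all genes fell. The median of the 38 was then 0.55 and that of all genes -0.00. Of the 17 calls 9 were kept (MFAP4, LUM, DCN, EFEMP1, LTBP3, SPOCK1, MFAP5, POSTN and CCN1) and 8 were lost (MGP, ASPN, THBS2, PRELP, VCAN, EFEMP2, SPP1 and LTBP1), while THBS1 was called in this fit alone of the pair. In that fit the difference between myoblast arrays 2 and 3 enters the error. For MFAP4, LUM and LTBP3 the signal of myoblast array 1 was not above its control level, so the sizes of their changes in that fit are uncertain.

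**Figure D1:**
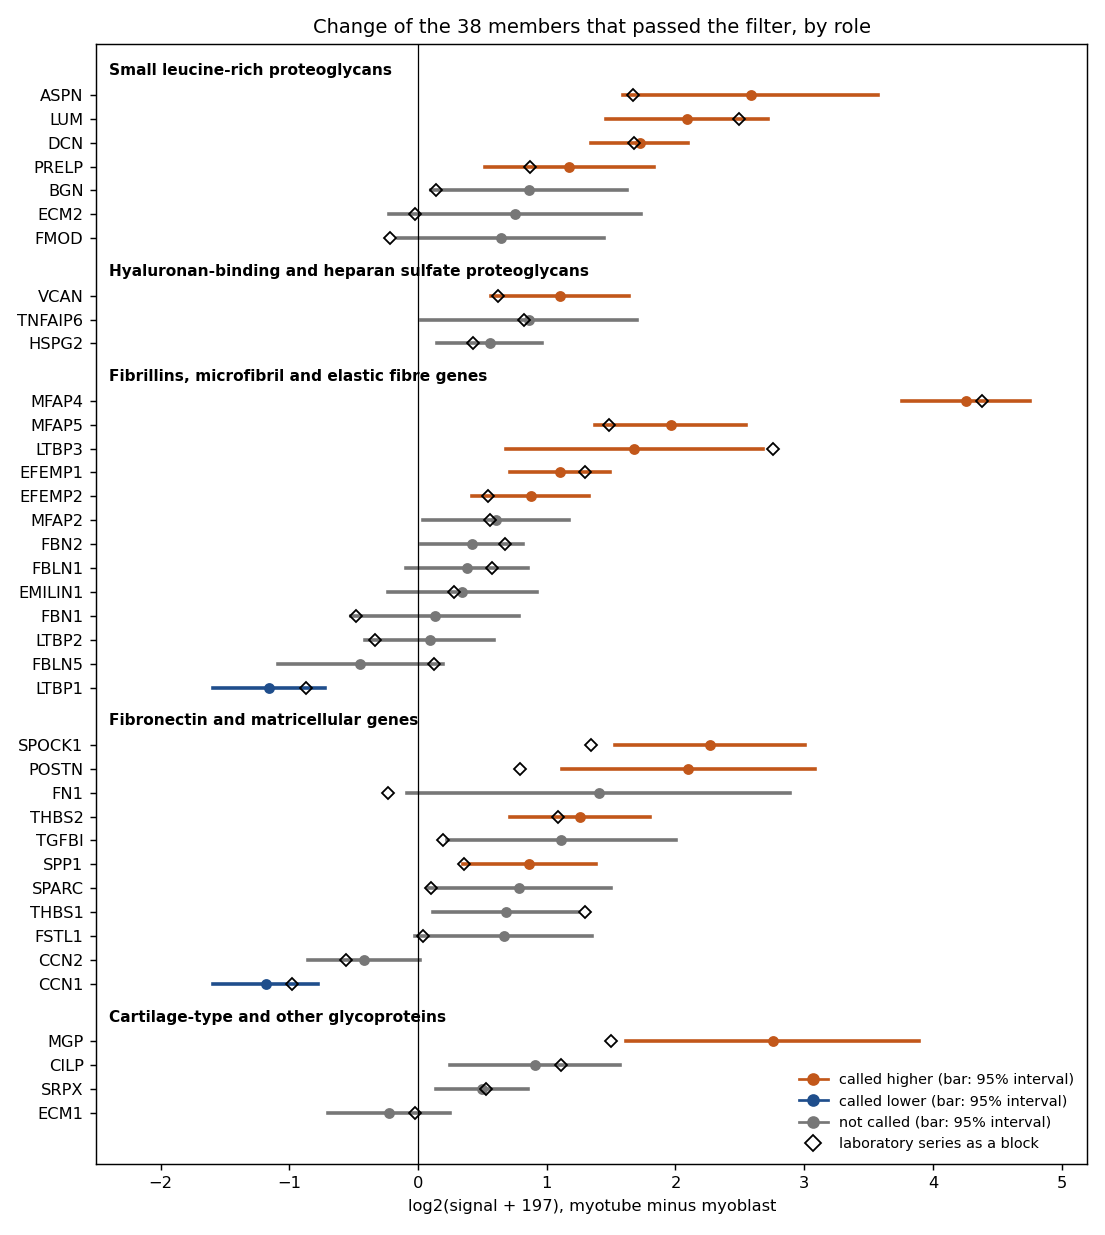
Change on the log2(signal + 197) scale, myotube minus myoblast, of the 38 members that passed the filter, in 5 role groups; filled points are the fit without a block with its 95% interval, open diamonds the fit with the laboratory series as a block. MFAP4 lies farthest to the right at 4.26, and CCN1 and LTBP1 are the 2 called members left of 0.

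Among the small leucine-rich proteoglycans 4 of 7 tested genes rose and 0 fell, where 5.89% of all genes rose and 7.12% fell. Their median log2 change was 1.18. In each sentence of signals that follows, the values are those of arrays 1, 2 and 3 of the stage in that order. DCN (decorin, which binds collagen and TGF-beta) gave 7616, 7752 and 6815 in myoblasts and 24972, 22175 and 27545 in myotubes. The stages lay far apart and arrays within a stage close together. DCN rose by 1.72 ± 0.17 (SE) on the log2 scale, 3.30-fold, with a limma adjusted p of 3.7e-04, and by 1.68 with the series block. LUM (lumican, its neighbour in the genome and a regulator of fibril diameter) gave 450, 877 and 698 in myoblasts and 3112, 2823 and 4610 in myotubes. Its myoblast 1 signal was not above that array's control level. LUM rose by 2.09 ± 0.28 (limma adjusted p = 0.002) and by 2.49 with the block.

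ASPN (asporin, a calcium-binding relative of decorin) gave 392, 21.7 and 40.6 in myoblasts and 1357, 1701 and 2042 in myotubes. All 3 myoblast signals were at or below the control level, which was 919.9, 326.5 and 251.5 on those arrays. With each raised to that level, the rise was at least 3.97-fold between the stage means of log2 signal. That is a bound for the mean of the 3 arrays and not for the comparison with myoblast array 1 alone. The fitted log2 change was 2.58 ± 0.45 with a limma adjusted p of 0.006. Myoblast array 1 stood above the other myoblast arrays, and with the series block the change was 1.67 with an adjusted p of 0.0929. PRELP, which anchors basement membranes to connective tissue, gave 931, 685 and 569 in myoblasts and 2518, 1776 and 1444 in myotubes, with no overlap. It rose by 1.18 ± 0.29 (limma adjusted p = 0.0276), and the adjusted p was 0.254 with the series block. Its call was also lost without myoblast array 2 or 3 or myotube array 1 or 2, the highest of those p-values being 0.128.

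The other members of the family did not pass the test. BGN (biglycan, the closest relative of decorin) gave 3494, 1316 and 1803 in myoblasts and 5758, 3405 and 2944 in myotubes. Its myoblast 1 signal exceeded 2 of the 3 myotube signals. The change was 0.86 ± 0.34 (limma adjusted p = 0.117), 0.85 and 0.64 in its other 2 probe sets, and 0.14 with the series block. ECM2 gave 697, 232 and 177 in myoblasts and 491, 827 and 777 in myotubes, a change of 0.75 ± 0.44 (adjusted p = 0.259). Of its signals 5 were at or below the control level. FMOD (fibromodulin, a collagen crosslinking modulator beside Prelp) had a change of 0.65 ± 0.36 (adjusted p = 0.237), with 2067, 763 and 685 in myoblasts and 1822, 1918 and 1524 in myotubes. For ECM2 and FMOD the series block turned the sign, to -0.02 and -0.22. Of the neighbours in the mouse genome, Dcn and Lum thus both rose, Prelp rose and Fmod was not called, Vcan rose and Hapln1 did not pass the filter, and in the row Ecm2, Aspn, Omd and Ogn, ASPN rose, ECM2 was not called and the remaining pair did not pass the filter.

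Among hyaluronan-binding and heparan sulfate proteoglycans 1 of 3 tested genes rose, where 5.89% of all genes rose. VCAN (versican, a large chondroitin sulfate proteoglycan that binds hyaluronan) gave 2668, 1415 and 1657 in myoblasts and 3702, 4827 and 4146 in myotubes. The stages did not overlap, and myoblast array 1 was the nearest to the myotubes. VCAN rose by 1.10 ± 0.24 (limma adjusted p = 0.0167), with 0.62 and an adjusted p of 0.238 under the series block; the call was also lost without myoblast array 2 or 3 or myotube array 2 (adjusted p up to 0.0832). TNFAIP6, which transfers inter-alpha-inhibitor chains to hyaluronan, gave 324, 301 and 304 in myoblasts and 983, 770 and 485 in myotubes. The control level was not exceeded by 4 of these 6 signals, and the change of 0.86 ± 0.38 was not called (adjusted p = 0.145). HSPG2 (perlecan, the heparan sulfate proteoglycan of basement membranes) gave 2730, 2157 and 2563 in myoblasts and 3670, 3452 and 4092 in myotubes. Every myotube array was higher, but the change of 0.56 ± 0.18 had an adjusted p of 0.0715. A dimmer probe set of HSPG2 had a change of -0.21.

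Of 13 fibrillin, microfibril and elastic fibre genes tested 5 rose, 1 fell and 7 were not called, with a median log2 change of 0.42. Over all genes tested 5.89% rose and 7.12% fell, so 1 fall in 13 lies near the share of all genes. With the series block 4 of the 13 rose and 0 fell, where 1.82% of all genes rose and 1.36% fell. MFAP4 (microfibril-associated protein 4, which binds elastic fibres and collagen) had the largest fitted change of the 38. It gave 312, 439 and 333 in myoblasts and 9222, 9260 and 13307 in myotubes. Even the highest myoblast signal was far below the lowest of the myotubes, and that of myoblast array 1 was not above its control level. MFAP4 rose by 4.26 ± 0.22, 19.1-fold on the log2(signal + 197) scale, with a limma adjusted p of 1.1e-05; it rose by 4.38 with the series block. MFAP5, another microfibril-associated glycoprotein, gave 1108, 516 and 677 in myoblasts and 3410, 3489 and 3434 in myotubes, where the 3 arrays nearly coincided. It rose by 1.96 ± 0.26 (limma adjusted p = 0.00194) and by 1.48 with the block (adjusted p = 0.0265). MFAP2, the closest relative of MFAP5 and a fibrillin partner, gave 2078, 2000 and 1946 in myoblasts and 2696, 2422 and 4787 in myotubes. Its change of 0.61 ± 0.25 did not pass the test (adjusted p = 0.132), although the stages did not overlap.

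Of the fibulin family EFEMP1 (fibulin-3) gave 8033, 9928 and 9865 in myoblasts and 17886, 20849 and 21640 in myotubes, all of them above the myoblasts. It rose by 1.10 ± 0.18 (limma adjusted p = 0.00427) and by 1.30 with the series block, and a dimmer probe set with a change of 0.58 was not called. EFEMP2 (fibulin-4, needed for elastic fibre assembly) gave 6948, 4604 and 5086 in myoblasts and 12308, 9768 and 8821 in myotubes, and here too the stages were apart. It rose by 0.88 ± 0.20 (limma adjusted p = 0.0208), and its second probe set rose by 0.76. With the block the EFEMP2 change was 0.54 with an adjusted p of 0.257, and its call was lost without myoblast array 2 or 3 or myotube array 1 or 2 as well (up to 0.0939). FBLN5 (fibulin-5, a tropoelastin-binding relative) gave 4356, 8315 and 7755 in myoblasts and 4986, 3330 and 6454 in myotubes. The stages overlapped through myoblast array 1. Its change of -0.45 ± 0.29 was not called (adjusted p = 0.3) and became 0.12 with the block.

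Fibrillins themselves were not called. FBN1 (fibrillin-1, the main microfibril backbone) gave 35349, 18288 and 18740 in myoblasts and 25026, 19648 and 32715 in myotubes, so its stages overlapped widely. The change was 0.13 ± 0.29, with a 95% interval from -0.52 to 0.79. FBN2 (fibrillin-2, the fibrillin prominent in embryonic tissue) gave 10286, 13541 and 13369 in myoblasts and 17414, 16398 and 15814 in myotubes. The stages did not overlap, but the change of 0.42 ± 0.18 had an adjusted p of 0.136. EMILIN1, an elastic fibre glycoprotein, had a change of 0.34 ± 0.26 with overlapping stages.

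Of the 3 latent TGF-beta binding proteins LTBP1 fell, LTBP3 rose and LTBP2 was not called; neither call held under every alternative. LTBP1 gave 6713, 9412 and 8818 in myoblasts and 4264, 3029 and 3550 in myotubes. Every myotube array was lower. LTBP1 fell by 1.16 on the log2 scale (SE 0.20, limma adjusted p = 0.00548), and its second probe set fell by 0.75. With the series block the value was -0.87 with an adjusted p of 0.0879. LTBP3 gave 78.6, 690 and 614 in myoblasts and 1673, 1382 and 2009 in myotubes. Here myoblast array 1 was the lowest and was below its control level. LTBP3 rose by 1.68 ± 0.45 (limma adjusted p = 0.035) and by 2.76 with the block. The size of the block change is uncertain, because it rests on the 78.6 of myoblast array 1, whose control level was 919.9. The LTBP3 call was lost under 9 of 21 alternatives, among them leaving out any of the 3 myotube arrays (adjusted p up to 0.11) and quantile normalization (0.0696). LTBP2 had a change of 0.09 ± 0.22 with overlapping stages and -0.33 with the block.

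Among fibronectin and the matricellular genes 4 of 11 tested rose, 1 fell and 6 were not called. Over all genes tested 5.89% rose and 7.12% fell, so 1 fall in 11 lies near the share of all genes. The median change was 0.86, and 0.19 with the series block. SPOCK1 (testican-1, a calcium-binding proteoglycan of the SPARC family) gave 4562, 1693 and 1567 in myoblasts and 13425, 11335 and 11040 in myotubes. Myoblast array 1 lay between the other myoblast arrays and the myotubes. SPOCK1 rose by 2.27 ± 0.33 (limma adjusted p = 0.00291) and by 1.34 with the block (adjusted p = 0.0135). POSTN (periostin, an integrin ligand of remodelling connective tissue, whose promoter is printed above) gave 21947, 5705 and 5308 in myoblasts and 39445, 37006 and 38196 in myotubes. Its myotube arrays were close together and its myoblast array 1 was far above the other myoblast arrays. POSTN rose by 2.10 ± 0.44 (limma adjusted p = 0.0141) and by 0.79 with the block (adjusted p = 0.0479); without myotube array 1 or 2 the call was lost (up to 0.0769).

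THBS2 (thrombospondin-2, an angiogenesis inhibitor that also binds metalloproteinases) gave 2540, 2366 and 1835 in myoblasts and 3889, 7361 and 6136 in myotubes, where array 1 was the nearest to the myoblasts. It rose by 1.26 ± 0.25 (limma adjusted p = 0.01); the call was lost with the block (1.08, adjusted p = 0.139) and without myotube array 2 (0.0582). THBS1 (thrombospondin-1, an activator of latent TGF-beta) gave 8453, 15976 and 16378 in myoblasts and 19573, 20979 and 22581 in myotubes. Every myotube array was higher, with myoblast array 1 the lowest. Its change of 0.68 ± 0.25 was not called (adjusted p = 0.101), whereas with the series block it was 1.29 with an adjusted p of 0.00767. SPP1 (osteopontin, a phosphorylated integrin ligand) gave 3232, 1794 and 1854 in myoblasts and 3956, 4224 and 4408 in myotubes. Myoblast array 1 was near the myotubes without reaching them. SPP1 rose by 0.86 ± 0.23 (limma adjusted p = 0.0364). Its call was lost under 12 of 21 alternatives, more than any other: with the block (0.36, adjusted p = 0.46) and, among others, without each array except myoblast array 1 (up to 0.155).

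CCN1 and CCN2, matricellular proteins that are immediate targets of serum and of the YAP and TEAD factors, were both lower on every myotube array. CCN1 gave 16082, 20304 and 19644 in myoblasts and 7143, 7750 and 9472 in myotubes. CCN1 fell by 1.18 on the log2 scale (SE 0.18, 2.27-fold, limma adjusted p = 0.0037), its second probe set fell by 1.06, and the value was -0.98 with the series block (adjusted p = 0.0428). CCN2 gave 18900, 16122 and 16566 in myoblasts and 10101, 14550 and 14167 in myotubes. Its change of -0.42 ± 0.19 did not pass the test (adjusted p = 0.166). The difference between the changes of CCN1 and CCN2 was not tested.

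**Figure D2:**
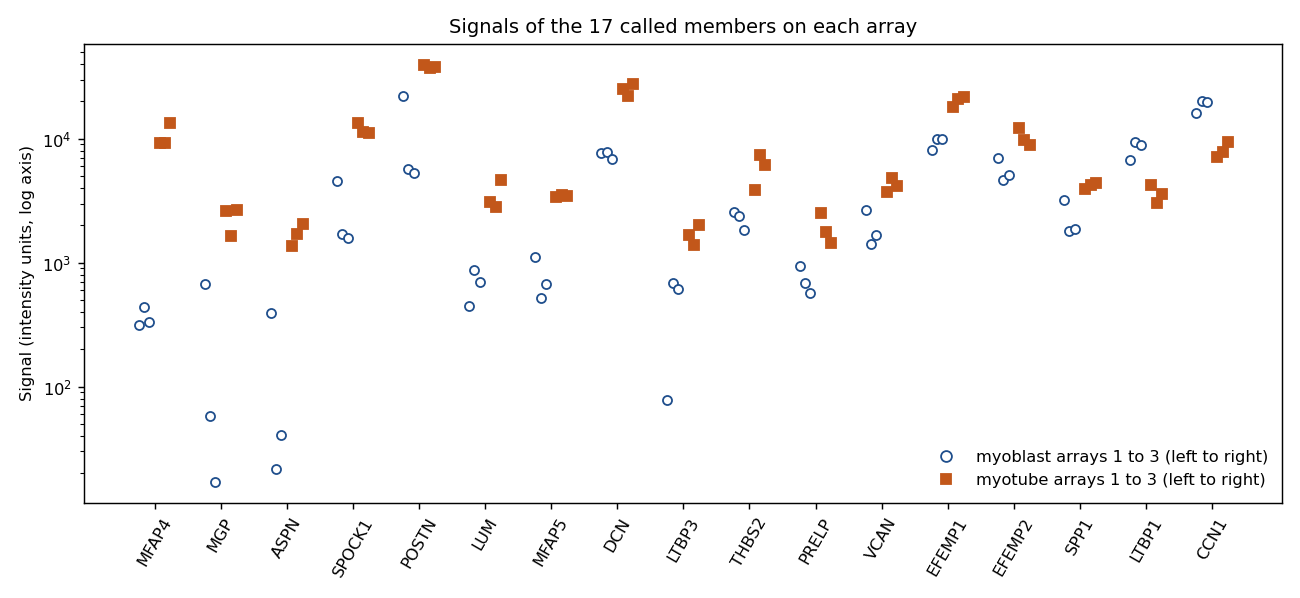
Signal on each of the 6 arrays, on a log axis, of the 17 called members, ordered by log2 change; open circles are myoblast arrays and filled squares myotube arrays. In each gene the stages do not overlap, and heights of different genes are not comparable because each has its own probes.

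A further 4 matricellular members and FBN1 belong with POSTN to the 6 members whose mean signal was 20000 or more, where the arrays behaved differently. FN1 (fibronectin) gave 244551, 44326 and 44688 in myoblasts and 338684, 224620 and 118424 in myotubes. Myoblast array 1 was within the range of the myotubes, and the other 2 myoblast arrays far below. The change was 1.40 ± 0.67 (limma adjusted p = 0.175) and -0.23 with the series block. TGFBI, a TGF-beta-induced cell adhesion protein, gave 87872, 32592 and 34626 in myoblasts and 107888, 119156 and 78871 in myotubes, a change of 1.11 ± 0.40 (adjusted p = 0.0902) that was 0.19 with the block. SPARC (osteonectin, a collagen-binding counter-adhesive protein) gave 54603, 25445 and 27696 in myoblasts and 70099, 48624 and 58638 in myotubes, a change of 0.79 ± 0.32 (adjusted p = 0.123). For FSTL1, a secreted follistatin-like glycoprotein, the signals were 55448, 28646 and 28817 in myoblasts and 61479, 65638 and 45512 in myotubes, a change of 0.66 ± 0.31 (adjusted p = 0.166) that was 0.04 with the block. In FN1, TGFBI, SPARC, FSTL1 and FBN1 the stages overlapped, each time through myoblast array 1. Without that array 8 more members passed the test, FN1, TGFBI, SPARC, FSTL1, BGN, FMOD, SRPX and HSPG2, and 23 rose in all. The myoblast arrays then left correlate at r = 0.988, and the share of all genes that rose in that fit is not given here. The count of 23 is therefore not read as a result about the members.

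At this brightness the scale of myoblast arrays 2 and 3 differed from that of the others. The highest gene signal was 69542 and 70520 on these 2 arrays, 312014 on myoblast array 1, and between 172188 and 399367 on the myotube arrays. The GAPDH control probe sets averaged 50820 and 51323 there, 156085 on myoblast array 1, and between 96111 and 125600 on the myotube arrays. Over the 190 genes with a mean signal of 20000 or more the median log2 change was 0.32, and it was -0.15 with the series block and 0.01 after quantile normalization. After quantile normalization the change of FN1 was 0.55 (adjusted p = 0.144), that of TGFBI 0.53 (0.0565), that of SPARC 0.52 (0.0659) and that of FSTL1 0.35 (0.147), each over 1.5 times smaller than without it. FBN1 was then 0.23 (0.489), and POSTN, at 2.13 with a limma adjusted p of 0.0125, remained called.

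**Figure D3:**
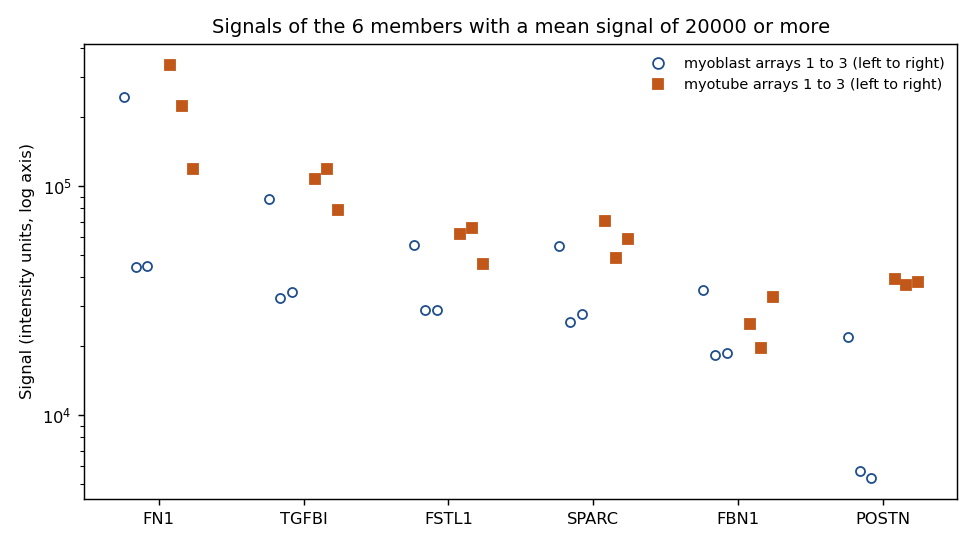
Signal on each array, on a log axis, of the 6 members with a mean signal of 20000 or more; open circles are myoblast arrays 1 to 3 and filled squares myotube arrays 1 to 3. Myoblast arrays 2 and 3 lie together below every myotube array. Myoblast array 1 lies within the myotube range in FN1, TGFBI, SPARC and FSTL1, above it in FBN1 and below it in POSTN.

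Of the cartilage-type and other glycoproteins 1 of 4 tested rose, where 5.89% of all genes rose. MGP (matrix Gla protein, an inhibitor of calcification) gave 668, 57.7 and 17.0 in myoblasts and 2589, 1626 and 2659 in myotubes. All 3 myoblast signals were at or below the control level, with myoblast array 1 the highest of them. With each raised to its control level, MGP rose at least 5.29-fold between the stage means of log2 signal. That level was 919.9 on myoblast array 1 and 326.5 and 251.5 on the others, so this is no bound for array 1 alone. The fitted log2 change was 2.76 ± 0.51 (limma adjusted p = 0.00826), and 1.50 with the series block (adjusted p = 0.108). CILP, a cartilage glycoprotein that binds TGF-beta, gave 568, 823 and 669 in myoblasts, the first below its control level, and 1959, 1283 and 1210 in myotubes. Its change of 0.91 ± 0.30 had an adjusted p of 0.0693. SRPX, a sushi-repeat protein, gave 7398, 7572 and 7722 in myoblasts and 11041, 9502 and 11899 in myotubes. The stages were apart, with a change of 0.50 ± 0.16 (adjusted p = 0.0684) that was called after quantile normalization (0.64, adjusted p = 0.0177). ECM1, a secreted glycoprotein that binds perlecan, had a change of -0.23 ± 0.21 with overlapping stages.

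Of the 47 members 23 had several probe sets and 24 a single one. Of the 88 probe sets 66 passed the filter, of which 22 rose, where 4.95% of all probe sets tested rose, and 4 fell, where 6.43% of all fell. Different probe sets of a gene can read different transcript ends or isoforms. DCN rose in 3 of 4 tested probe sets, by 1.72, 1.91 and 1.31, and the dimmest gave 0.30. VCAN rose in 2 of 4, by 1.10 and 1.28. FBLN1 (fibulin-1) was not called by its brightest probe set, with a change of 0.38 ± 0.21 in the fit by gene, but rose in 2 of its 5, by 1.23 and 1.08. SPARC likewise rose by 0.89 in its second probe set (limma adjusted p = 0.0177), where every myotube array was higher. None of the 5 probe sets of THBS1 was called by limma (2 at an unadjusted p under 0.05), and their changes ran from -0.62 to 0.81. Of the 6 probe sets of FN1 none was called by limma (1 at an unadjusted p under 0.05). In 5 the changes ran from 0.63 to 1.40, and the dimmest gave -0.51. In the FN1 probe set at 0.63 every myotube signal was above every myoblast signal, and its change was 0.98 with the series block. The other 5 probe sets of FN1 were then below 0, from -0.57 to -0.08. The second FBN1 probe set gave -0.04.

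**Figure D4:**
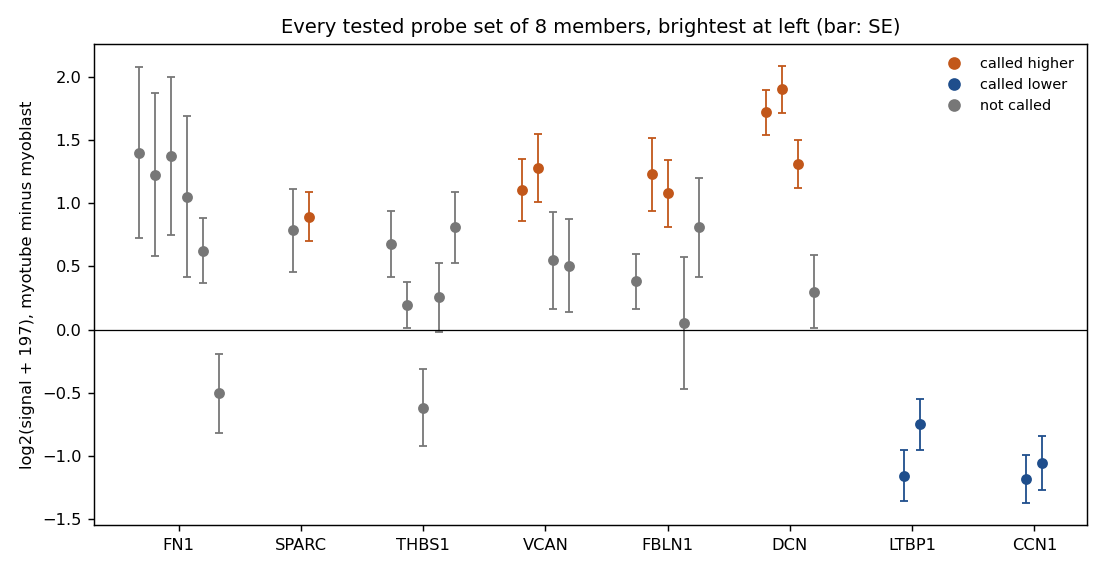
Change on the log2(signal + 197) scale, myotube minus myoblast, with its SE, of every tested probe set of 8 members, the brightest at the left in each gene. The 2 probe sets each of LTBP1 and CCN1 lie below 0 together, while those of THBS1 and FN1 lie on both sides of 0.

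The 9 members below the filter were OGN and OMD of the leucine-rich family, HAPLN1, ELN and FBLN2, TNC, and DPT, COMP and MATN2. OGN (osteoglycin), OMD (osteomodulin), HAPLN1 (a hyaluronan link protein), DPT (dermatopontin), COMP (cartilage oligomeric matrix protein) and MATN2 (matrilin-2) were at or below the control level on all 6 arrays, so no fold is given. In 4 of the 9 every myotube signal was above every myoblast signal, without a test, as in 17.7% of the 3794 genes below the filter. The control level itself was 919.9, 326.5 and 251.5 on the myoblast arrays and 731.4, 1040.2 and 520.1 on the myotube arrays, and its part in these 4 was not tested. OGN gave 25.8, 16.8 and 9.23 in myoblasts and 86.0, 689 and 379 in myotubes. ELN (elastin, the elastic core of the fibre) gave 190, 253 and 397 in myoblasts and 591, 471 and 677 in myotubes. The other two were OMD and MATN2. TNC (tenascin-C, an anti-adhesive glycoprotein) gave 430, 188 and 393 in myoblasts and 992, 231 and 588 in myotubes, and FBLN2 gave 450, 183 and 366 and then 640, 119 and 167; both overlapped.

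Other secreted or cell-surface matrix genes were read from a list of 47 symbols, of which 29 were tested: 4 rose, 2 fell and the median change was 0.51. Over all genes tested 5.89% rose and 7.12% fell, so 2 falls in 29 lie near the share of all genes. THBS3, a further thrombospondin, rose by 1.10 ± 0.30 (limma adjusted p = 0.0388). PXDN, a peroxidase that crosslinks collagen IV, rose by 1.00 ± 0.20 (limma adjusted p = 0.0109), and SDC2 (syndecan-2, a cell-surface heparan sulfate proteoglycan) by 0.87 ± 0.24 (limma adjusted p = 0.0387). CRIM1, a transmembrane BMP-binding protein, fell by 1.12 (SE 0.25, limma adjusted p = 0.0177), and SRGN (serglycin, an intracellular granule proteoglycan) fell by 0.92 (SE 0.21, limma adjusted p = 0.0181). With the series block SRGN alone of the list was called.

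The enzymes that build glycosaminoglycan chains, on which the proteoglycans depend, gave other counts. Of 24 tested 1 rose and 6 fell, with a median log2 change of -0.19. Beside the 5.89% of all genes that rose and the 7.12% that fell, 1 rise in 24 lies near the share of all genes. In each of the 3 falls named here, 2 of the 3 myotube signals were at or below the control level, so their sizes are uncertain. HAS2, the main hyaluronan synthase of mesenchymal cells, gave 1014, 3102 and 2456 in myoblasts and 703, 49.6 and 596 in myotubes. Every myotube array was lower, and myoblast array 1 was the nearest to them. HAS2 fell by 1.97 (SE 0.54, limma adjusted p = 0.0375). With a myotube mean of 450 it passed the filter of 474.6 through its myoblast signals. The test of its fall is therefore not independent of the filter. XYLT1, which starts chondroitin and heparan sulfate chains by adding xylose, gave 2421, 2516 and 2456 in myoblasts and 550, 599 and 1199 in myotubes, again without overlap. It fell by 1.50 (SE 0.29, limma adjusted p = 0.00942), and CSGALNACT2, which starts chondroitin chain polymerization, fell by 1.10 (SE 0.31, limma adjusted p = 0.0433). NDST1, an N-deacetylase and N-sulfotransferase of heparan sulfate, rose by 0.87 ± 0.25 (limma adjusted p = 0.0484), a call that quantile normalization did not give. With the series block 0 of the 24 passed the limma test and 5 had an unadjusted p under 0.05; the 3 named falls were then -1.11, -1.48 and -0.81.

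Markers of cell types that such a culture could hold were read beside these results. Of the myotube markers 11 of 13 tested rose, where 5.89% of all genes tested rose. Of these 11, MYH3, MYL1, TNNT1, TNNI1, TNNC1, ACTA1, MYBPH and CASQ2 had myoblast means below 474.6 and passed the filter through their myotube signals. For them the test of a rise is not independent of the filter. The summed signal of the myotube list was 13256, 4076 and 4438 on the myoblast arrays and between 47268 and 54541 on the myotube arrays. Myoblast array 1 thus had the highest of the myoblast sums. CKM and MYOG, both defining myotube genes, were at or below the control level on all 6 arrays. So were MYF5 and PAX7 of the myoblast list. Of that list 0 of 3 tested genes passed the limma test (1 at an unadjusted p under 0.05). The summed signal of the myoblast list was 5024, 1880 and 2341 on the myoblast arrays and between 5336 and 5833 on the myotube arrays. Every myotube sum was thus higher, so this list did not set the myoblast arrays above the myotube arrays. The median log2 change of its tested genes was 0.42, and 0.03 with the series block. Of the markers of dividing cells 6 of 7 fell, where 7.12% of all genes tested fell. Their sums were 17741 to 22265 in myoblasts and 4269 to 6049 in myotubes. CDK1 and BUB1, with myotube means of 236 and 194.5, passed the filter through their myoblast signals. For this pair the test of a fall is not independent of the filter.

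Fibroblast markers, with members left out, rose in 6 of 10 tested, where 5.89% of all genes rose. Their sum was 295218, 150303 and 160259 in myoblasts and 392514 to 606168 in myotubes. COL1A1 and COL1A2, at 99117 and 143958 on myoblast array 1, dominate that sum. They lie at the brightness where the scale of myoblast arrays 2 and 3 differed, and the part of that scale in the sums was not tested. The median change was 1.35, and 0.89 after quantile normalization, where 7 of the 10 and 450 of all 8148 genes rose. With the series block 3 of the 10 rose, where 1.82% of all genes rose. The median was then 0.83, and COL1A1, THY1 and PDGFRB were no longer called. COL3A1 rose by 2.69 ± 0.25 (limma adjusted p = 2.7e-04), while TCF21 was at or below the control level on all 6 arrays. Of 4 smooth muscle and myofibroblast markers tested 3 rose and 1 fell, with sums of 20926 to 38713 and 66146 to 73764. CNN1, among the 3, had a myoblast mean of 427 and passed the filter through its myotube signals, so its test is not independent of the filter. Of the cartilage and bone markers 0 of 5 tested were called by limma (1 at an unadjusted p under 0.05), with sums of 2529 to 5657 in myoblasts and 4364 to 9151 in myotubes, and IBSP was at or below the control level throughout. None of the 2 adipocyte, 1 endothelial and 1 leukocyte markers tested was called by limma (0, 1 and 0 at an unadjusted p under 0.05). At or below the control level on all 6 arrays were 3 of 6 adipocyte, 2 of 5 endothelial and 4 of 5 leukocyte markers. ADIPOQ, CDH5 and PTPRC were among them. CD53 was above that level on every array, and PPARG and PECAM1 on all but 1. The adipocyte sums were 2439 to 3105 in myoblasts and 1895 to 3307 in myotubes. Endothelial sums were 1011 to 2400 and 2258 to 3836, and leukocyte sums 1470 to 2065 and 1866 to 2867. In 10 of the 15 members that rose, myoblast array 1 was the highest of the myoblast arrays, as in 67.3% of the 480 genes that rose in all. The part of fibroblast-type cells, and of the state of myoblast array 1, in the members' changes was not tested.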

How the data were processed

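Total RNA had been hybridised to 6 HG-U133A arrays. The deposited values are an intensity, a linear signal per probe set. Per the submitters' processing notes they came from MAS5 (version not given in the sources used here). Groups and array numbers came from the labels; in the run records of all 3 myoblast arrays the number differed from the title, and the titles were used. Arrays have no sequencing depth, and their number limits the precision.

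Control probe sets (68 of 22283) and 48 sex-linked ones were left out. The platform annotation of 2016 gave 19065 probe sets 1 symbol, 1043 several and 2107 none; only those with 1 were named. The brightest probe set stood for each gene, and those with a mean signal below the 40th percentile were left out. Values were log2(signal + 197), 197 being the table's 25th percentile, so folds of dim genes are understated. Stages were compared with limma 3.58.1 (lmFit, eBayes with trend, two-sided, R 4.3.3), with Benjamini-Hochberg adjustment over all 8148 genes (13300 probe sets for the probe set counts) and a threshold of 0.05. Where a whole group was at or below the control level, folds are bounds taken against the higher of the control level and the signal. These were averaged over the group's arrays on the log2 scale, so each is a bound for that mean and not for a single array. Every member is named; signals are given for the called ones and for the uncalled ones with the largest changes in each role group, and those of FMOD, FBN1, FBN2, SPARC, FSTL1, THBS1, CCN2, OGN, ELN, TNC and FBLN2 were added after their values were seen. From other lists up to 3 called genes per direction are named. Members, lists and motifs were chosen with earlier results of these data known.

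On data simulated for this comparison with 8148 genes, a log2 change of 1 was recovered in 13 of 200 genes (0 false calls) and a log2 change of 2 in 150 of 200 (6 false calls). Alternatives were the pseudocount, filter, scaling, variance model, replicate number, chip lot and laboratory series as blocks, the first series alone, myoblast arrays 2 and 3 averaged, the choice of probe set, and leaving out each array. Figures were drawn with matplotlib 3.10.9.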

Additional observations from a re-analysis of the deposited data

How the results depend on the processing

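Over the 38 tested members and up to 21 alternatives, 685 of 789 values kept the direction and the side of the threshold, 65 kept the direction and lost the call, 17 gained one and 22 changed sign. DCN, LUM, MFAP4, MFAP5 and SPOCK1 kept their calls under every alternative run. The count of members that rose, 15, became 8 with chip lot as a random block, 9 with the laboratory series as a block and 8 in the first series alone, where myoblast array 1 stands alone and its spread is taken from the myotubes; leaving out each array gave 8 (without myotube array 2) to 23 (without myoblast array 1). The count that fell, 2, became 1 with the series block and 0 in the first series alone. Of the other matrix and glycosaminoglycan genes 13 were called; 6 were without the variance trend, 0 with chip lot, 1 with the series block, 1 in the first series, 2 with myoblast arrays 2 and 3 averaged, and 1 (without myotube array 2) to 22 (without myoblast array 1) on leaving out each array. With the replicate number as a block 18 members rose and 2 fell; with the number of the run records, chosen after seeing the data, 11 rose, 2 fell and 2 of the other genes were called. Deviations of same-numbered arrays from their stage means correlated at 0.256, -0.18 and 0.373, and myoblast array 2 correlated best with myotube array 3, so the numbers were not taken as pairs. The replicate block moved no count of members by over 1.5 times. Of the fits whose counts are given in this paragraph, the share of all genes called is given here for the series block alone. There 1.82% rose and 1.36% fell. The other counts show how calls depend on the fit and are not read as results about the members. No chip lot held both stages, so the fit with chip lot as a random block cannot separate lot from stage.

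Sign changes were seen in members that were not called. With the series block and in the first series alone the log2 change was -0.02 for ECM2, 0.12 for FBLN5, -0.48 for FBN1, -0.22 for FMOD, -0.23 for FN1 and -0.33 for LTBP2. With myoblast arrays 2 and 3 averaged it was -0.019 for FBN1 and -0.015 for LTBP2, and in the second probe set -0.038 for FBN1 and -0.21 for HSPG2. Leaving out each array gave -0.051 to 0.44 for FBN1 and -0.072 to 0.30 for LTBP2. The cause was not tested. Signals near the control level limit what can be said of ASPN, MGP, ECM2, TNFAIP6 and the 9 members below the filter, and on 1 myoblast array of LUM, MFAP4, LTBP3 and CILP.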
